A study of Homo sapiens with 12 samples.

Results

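APAF1, PIDD1 and AEN are 3 genes through which p53 reaches the machinery of programmed cell death. They were followed by their gene symbols, each of which had 1 probe set in the annotated value table (APAF1 16755542, PIDD1 16734119, AEN 16804478), so these are 3 of the 14118 genes measured under a symbol. Expression had been measured on 12 Affymetrix Human Gene 2.0 ST arrays from HCT116, SW48 and RKO, established lines of human colorectal cancer that the labels call wild type for p53. In each line, 2 arrays came from cells given 10 µM Nutlin-3a for 8 h and 2 from untreated cells. Nutlin-3a occupies the p53 pocket of MDM2 and so spares p53 from degradation. The treatment text covers all 3 lines, while the culture text names HCT116 only, so the medium of SW48 and RKO is not stated. No line carries an engineered change in the labels. The labels call the arrays duplicates without saying that they came from separate cultures, so every p-value measures the spread between these arrays, which may be technical.

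APAF1 encodes the scaffold that binds cytochrome c released from mitochondria and assembles into the apoptosome, a wheel-shaped complex that activates the initiator caspase-9. PIDD1 encodes a death domain protein that builds the PIDDosome with the adaptor RAIDD (gene CRADD) and caspase-2, a complex activated by extra centrosomes and by DNA damage. AEN encodes the apoptosis enhancing nuclease, an exonuclease that digests DNA in the course of apoptosis. All 3 are known transcriptional targets of p53.

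The 3 genes responded to the same activator, APAF1 in HCT116 and RKO only. APAF1 also starts beside another p53-responsive gene, IKBIP, on the opposite strand. For these reasons the promoter sequences are shown. Each is the stretch of 250 bases before the transcription start in the RefSeq promoter table of build GRCh38.p14, printed 5′ to 3′ on the strand of its gene. Capitals mark the CCAAT box, the GC box GGGCGG and the p53 half-site, the decamer bound by a pair of p53 molecules, all searched on both strands.
APAF1, chr12:98645040-98645289, plus strand: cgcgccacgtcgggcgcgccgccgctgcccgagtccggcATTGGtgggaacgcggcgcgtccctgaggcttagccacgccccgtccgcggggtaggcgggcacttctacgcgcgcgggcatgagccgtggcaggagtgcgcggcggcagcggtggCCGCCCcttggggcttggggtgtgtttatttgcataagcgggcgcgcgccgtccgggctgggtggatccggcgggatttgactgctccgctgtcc
IKBIP, chr12:98644789-98645038, minus strand: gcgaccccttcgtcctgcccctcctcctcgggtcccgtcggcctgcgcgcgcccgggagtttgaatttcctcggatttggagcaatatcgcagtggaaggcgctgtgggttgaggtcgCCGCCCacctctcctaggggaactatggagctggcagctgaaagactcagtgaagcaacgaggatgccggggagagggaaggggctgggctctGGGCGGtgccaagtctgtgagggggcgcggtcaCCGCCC
PIDD1, chr11:805232-805481, minus strand: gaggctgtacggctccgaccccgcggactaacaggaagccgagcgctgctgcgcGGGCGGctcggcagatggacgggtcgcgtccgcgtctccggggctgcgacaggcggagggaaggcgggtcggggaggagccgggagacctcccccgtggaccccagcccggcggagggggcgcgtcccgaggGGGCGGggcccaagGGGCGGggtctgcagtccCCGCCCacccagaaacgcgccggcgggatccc
AEN, chr15:88621090-88621339, plus strand: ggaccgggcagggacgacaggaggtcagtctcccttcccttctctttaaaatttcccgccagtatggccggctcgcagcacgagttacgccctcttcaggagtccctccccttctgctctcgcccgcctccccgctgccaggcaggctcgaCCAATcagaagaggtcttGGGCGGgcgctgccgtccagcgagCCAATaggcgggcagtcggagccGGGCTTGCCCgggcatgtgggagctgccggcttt

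Of the 4 promoters, AEN alone held an exact p53 half-site, between 34 and 25 bases before its start, while 5.53% of 27305 promoters of this length held one. The 20 bases that begin there read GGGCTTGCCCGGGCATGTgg at chr15:88621306-88621325 on the plus strand. Capitals there mark the 18 of 20 positions that match 2 adjoining half-sites with no spacer, 10 in the first and 8 in the second, and 0.542% of the promoters had a stretch matching as well. The best stretch matched 13 positions in APAF1 and 14 in IKBIP and in PIDD1, which 99.9% and 95.9% of promoters reached. The GC box occurred 1 time in APAF1, 3 times in IKBIP, 4 times in PIDD1 and 1 time in AEN, against 42.3% of promoters with any. The CCAAT box occurred 1 time in APAF1 and 2 times in AEN, against 33.0%, and no motif overlapped another. TATAAA, held by 11.1% of promoters, and the E2F motif TTTNGCGC, held by 1.54%, were in none of the 4. The GC content was 73.6% for APAF1, 77.6% for PIDD1 and 66.0% for AEN and IKBIP, against a median of 58.0%. A match is a description of letters and shows no binding, and these windows leave out more distant elements.

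Duplicate arrays correlated at 0.996 to 0.997 (Pearson's r over the whole table), and the lowest r between 2 cell lines was 0.957. The 5 measured genes of 8 chosen as a check of p53 activation, TP53INP1, SESN1, GDF15, TP53I3 and RRM2B, rose in every line, with log2 fold changes from 1.09 to 2.48 in HCT116, 1.10 to 2.59 in SW48 and 0.96 to 1.90 in RKO. These genes were chosen with earlier results of these data known, and 0.545% of all genes were called higher in every line. The other 3 genes of the check were not analysed here. Because the extraction text in the labels speaks of thyroids, thyroid markers were examined: 5 of 9 were measured, and lay between 4.45 and 6.25 on the log2 scale over all arrays, with 0 called in any line. Of 9 markers of colorectal epithelium 8 were measured, from 4.17 to 11.13, with EPCAM averaging 9.35 and KRT20 4.64. Of the markers of leukocytes, fibroblasts and endothelium, 2 of 5, 3 of 6 and 2 of 5 were measured. CD68, a lysosomal protein, averaged 9.28 and the other 6 averaged 3.14 to 5.66. Of these 7 only 1 was called, a fibroblast marker in HCT116.

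APAF1 rose with Nutlin-3a in HCT116 and RKO cells but not in SW48 cells. Its log2 values were 8.62 and 8.59 on the Nutlin-3a arrays of HCT116, against 7.41 and 7.42 on the untreated arrays. In RKO they were 8.73 and 8.85 with Nutlin-3a, against 8.07 and 7.97 untreated. In SW48 the values were 7.36 and 7.43 with Nutlin-3a, against 7.42 and 7.31 untreated. The groups stood apart in HCT116 and RKO, and in SW48 they overlapped.

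On the log2 scale the APAF1 effect was 1.19 ± 0.069 (SE, n = 2 arrays per group) in HCT116, a 2.28-fold rise with an adjusted p of 1.46e-05 from limma, and the 22nd largest rise among 14118 genes. It was 0.77 ± 0.069 in RKO, a 1.71-fold rise (limma adjusted p = 0.000365), the 38th largest. In SW48 it was 0.03 ± 0.069 (limma adjusted p = 0.894), with a 95% interval from -0.13 to 0.18. That interval leaves out effects of the size measured in the other lines, and without SW48 untreated replicate 2 or Nutlin-3a replicate 2 the estimate was below 0 (-0.025 and -0.0070). With RKO fitted alone on its 4 arrays, the RKO rise had an adjusted p of 0.0591.

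PIDD1 rose in all 3 lines, with its largest estimate in RKO. The effect in RKO was not told apart from that in SW48 (difference 0.14 ± 0.14, limma adjusted p = 0.773). The log2 values of PIDD1 in RKO were 9.46 and 9.46 with Nutlin-3a, against 8.32 and 8.32 untreated. In SW48 they were 8.75 and 8.99 with Nutlin-3a, against 7.85 and 7.88 untreated. In HCT116 they were 8.57 and 8.35 with Nutlin-3a, against 8.04 and 7.87 untreated. In each line both Nutlin-3a arrays were above both untreated arrays, by at least 1.14 in RKO, 0.87 in SW48 and 0.32 in HCT116.

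The PIDD1 effect on the log2 scale was 1.14 ± 0.097 in RKO (2.21-fold, limma adjusted p = 0.000273), 1.01 ± 0.097 in SW48 (2.01-fold, adjusted p = 0.000341) and 0.51 ± 0.097 in HCT116 (1.42-fold, adjusted p = 0.0167). These were the 15th, the 28th and the 201st largest rises. The HCT116 call was lost without untreated replicate 2 (adjusted p = 0.112), without Nutlin-3a replicate 1 (0.107) and with HCT116 fitted alone (0.0924). PIDD1 also had the widest spread of the 3 genes, with up to 0.24 between the arrays of a group, against 0.12 for APAF1 and 0.13 for AEN.

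AEN rose in all 3 lines, with its largest estimate in SW48. Its log2 values in SW48 were 8.32 and 8.45 with Nutlin-3a, against 7.46 and 7.45 untreated. In HCT116 they were 8.81 and 8.69 with Nutlin-3a, against 8.18 and 8.19 untreated. In RKO they were 9.23 and 9.25 with Nutlin-3a, against 8.79 and 8.74 untreated. The groups did not overlap in any line.

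The AEN effect was 0.93 ± 0.067 in SW48 (1.90-fold, limma adjusted p = 6.08e-05), 0.57 ± 0.067 in HCT116 (1.49-fold, adjusted p = 0.000972) and 0.47 ± 0.067 in RKO (1.39-fold, adjusted p = 0.00705). The RKO call was lost without untreated replicate 2 (adjusted p = 0.0548), without Nutlin-3a replicate 2 (0.0576) and with RKO fitted alone (0.113).

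**Figure D1:**
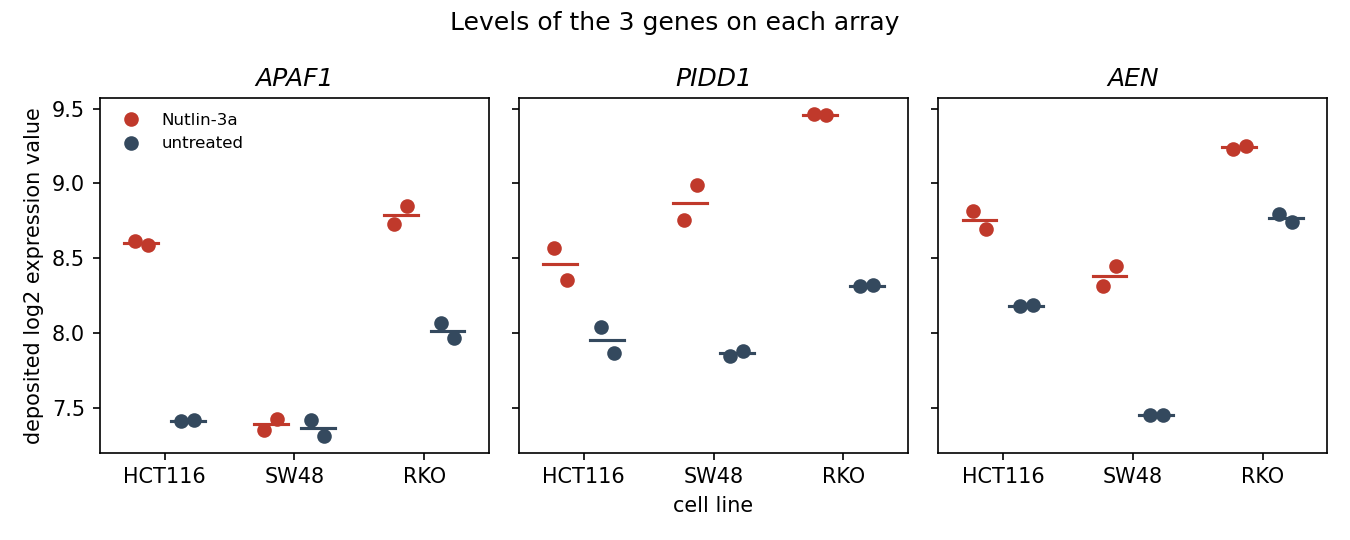
Deposited log2 expression values (vertical axis) of APAF1, PIDD1 and AEN in HCT116, SW48 and RKO cells, with a point per array, Nutlin-3a (red) left of untreated (dark) and a bar at the mean of the 2 arrays. In SW48 the APAF1 arrays lie between 7.31 and 7.43 in both conditions. For every other gene and line shown, the Nutlin-3a arrays lie above the untreated arrays of that line.

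Counted by line, 3 of the 3 genes rose in HCT116, 2 in SW48 and 3 in RKO. Among all 14118 genes 3.08% were called higher in HCT116, 1.38% in SW48 and 1.23% in RKO. The 3 genes were chosen with earlier results of these data known, so their counts may partly restate the choice. PIDD1 and AEN were among the 77 genes (0.545%) called higher in each of the 3 lines. Nutlin-3a arrays lay wholly above untreated arrays for 23.9% of genes in HCT116, 19.3% in SW48 and 20.6% in RKO. Averaged over the 3 lines, PIDD1 rose by 0.89 ± 0.056 (limma adjusted p = 8.57e-06), APAF1 by 0.66 ± 0.040 (6.22e-06) and AEN by 0.66 ± 0.038 (5.16e-06), where 4.33% of genes were called higher. For APAF1 that mean joins 2 lines that rose and 1 that did not. The median log2 fold change over all genes was -0.01 in each line.

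Whether the response differed between lines was tested with the 3 effects in 1 model. For APAF1 the effects were unequal (F test with 2 degrees of freedom, limma adjusted p = 0.00629), as for 0.503% of all genes. The APAF1 effect in SW48 minus that in HCT116 was -1.16 ± 0.098 on the log2 scale (adjusted p = 0.0022), with 0.127% of genes called lower in this contrast. The effect in RKO minus that in SW48 was 0.74 ± 0.098 (adjusted p = 0.0193, 0.212% of genes called higher). This second call was lost without SW48 untreated replicate 1 (adjusted p = 0.0901), SW48 Nutlin-3a replicate 1 (0.0834) or 2 (0.0599), RKO untreated replicate 2 (0.0909) or RKO Nutlin-3a replicate 2 (0.0709). The effect in RKO minus that in HCT116 was -0.41 ± 0.098 and did not pass (adjusted p = 0.152, 0.248% of genes called in either direction), with a 95% interval from -0.63 to -0.20 that is not adjusted over genes.

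For PIDD1 and AEN the 3 effects were not shown to differ after adjustment over all genes. The F test gave a limma adjusted p of 0.132 for PIDD1 and 0.122 for AEN. The largest pairwise difference of PIDD1 was that in RKO minus that in HCT116, 0.64 ± 0.14 (limma adjusted p = 0.117, 95% interval from 0.33 to 0.94). That of AEN was the effect in RKO minus that in SW48, -0.46 ± 0.094 (adjusted p = 0.114, interval from -0.67 to -0.25). Both F tests passed when only genes above the median level were tested (adjusted p = 0.0468 for PIDD1 and 0.0335 for AEN) and when limma's prior variance was robust and followed intensity (0.0184 and 0.0275).

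**Figure D2:**
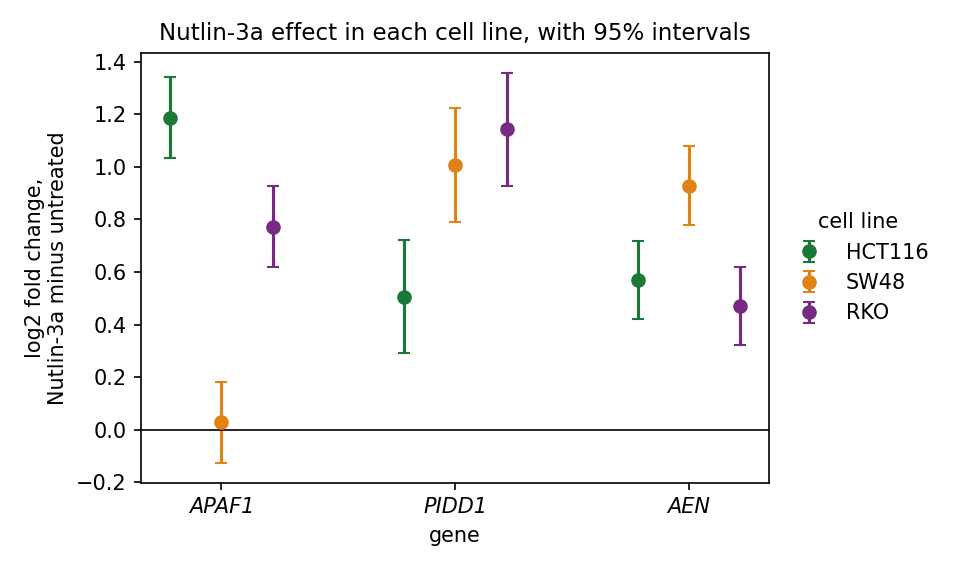
Log2 fold change of Nutlin-3a minus untreated (vertical axis) for APAF1, PIDD1 and AEN in HCT116, SW48 and RKO, with points at the estimate from limma and bars for its 95% interval. The interval of APAF1 in SW48, from -0.13 to 0.18, spans 0, and the lowest bound of the others is 0.29.

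Ordered by level, the 6 groups ran differently for each gene. APAF1 was highest in RKO with Nutlin-3a (8.79 ± 0.084, mean ± SD, n = 2), followed by HCT116 with Nutlin-3a (8.60 ± 0.019), untreated RKO (8.02 ± 0.071), untreated HCT116 (7.41 ± 0.0040), SW48 with Nutlin-3a (7.39 ± 0.050) and untreated SW48 (7.36 ± 0.076). The last 3 overlapped and were not told apart (limma adjusted p = 0.813 and 0.894 for the neighbours). The top 2 differed by 0.19 ± 0.069 (adjusted p = 0.0525). The steps between untreated RKO and its neighbours were 0.59 below HCT116 with Nutlin-3a and 0.60 above untreated HCT116 (adjusted p = 6.51e-05 and 5.72e-05). With or without Nutlin-3a, the APAF1 arrays of SW48 thus overlapped those of untreated HCT116 cells.

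PIDD1 was highest in RKO with Nutlin-3a (9.46 ± 0.0046), then in SW48 with Nutlin-3a (8.87 ± 0.17), HCT116 with Nutlin-3a (8.46 ± 0.15), untreated RKO (8.32 ± 0.0018), untreated HCT116 (7.95 ± 0.12) and untreated SW48 (7.86 ± 0.020). HCT116 with Nutlin-3a and untreated RKO were not told apart (difference 0.14 ± 0.097, limma adjusted p = 0.28), nor were untreated HCT116 and untreated SW48 (0.09 ± 0.097, adjusted p = 0.501). The other 3 neighbouring steps passed, with adjusted p-values of 0.000594, 0.00567 and 0.0122 from the top down. The second of these lost its call without HCT116 Nutlin-3a replicate 2 (0.0544) or SW48 Nutlin-3a replicate 2 (0.0531). The third lost it without HCT116 untreated replicate 2 (0.0976), RKO untreated replicate 1 (0.0505) or 2 (0.0516), and with quantile normalization (0.0557).

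AEN was highest in RKO with Nutlin-3a (9.24 ± 0.015), then in untreated RKO (8.77 ± 0.036), HCT116 with Nutlin-3a (8.75 ± 0.086), SW48 with Nutlin-3a (8.38 ± 0.093), untreated HCT116 (8.18 ± 0.0048) and untreated SW48 (7.45 ± 0.0032). The AEN arrays of untreated RKO cells overlapped those of HCT116 cells with Nutlin-3a, with a difference of 0.01 ± 0.067 (limma adjusted p = 0.89). The other 4 neighbouring steps passed, from 0.20 ± 0.067 between SW48 with Nutlin-3a and untreated HCT116 (adjusted p = 0.0323) to 0.73 ± 0.067 between untreated HCT116 and untreated SW48 (8.74e-06).

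Before treatment, all 3 genes were highest in RKO. Untreated RKO minus untreated HCT116 came to 0.60 ± 0.069 for APAF1, 0.36 ± 0.097 for PIDD1 and 0.58 ± 0.067 for AEN on the log2 scale (limma adjusted p = 5.72e-05, 0.0122 and 5.41e-05), where 41.5% of genes were called in either direction. The PIDD1 call in this contrast was lost under the settings named above. Untreated RKO minus untreated SW48 came to 0.65 ± 0.069, 0.45 ± 0.097 and 1.32 ± 0.067 in the same order of genes (adjusted p = 2.55e-05, 0.00313 and 1.16e-07), where 44.7% were called. Untreated SW48 minus untreated HCT116 was -0.73 ± 0.067 for AEN (adjusted p = 8.74e-06, 44.9% of genes called). For APAF1 and PIDD1 it was -0.05 ± 0.069 and -0.09 ± 0.097, with overlapping arrays. The 3 untreated means differed for each gene by the F test (adjusted p = 2.48e-05 for APAF1, 0.00485 for PIDD1 and 2.35e-07 for AEN), as for 58.1% of all genes, so a difference between lines was common in the table. Cell line and any batch of culture or hybridization cannot be told apart.

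With Nutlin-3a, RKO minus SW48 was 1.40 ± 0.069 for APAF1, 0.59 ± 0.097 for PIDD1 and 0.86 ± 0.067 for AEN (limma adjusted p = 9.5e-08, 0.000594 and 2.74e-06, with 44.6% of genes called). The gap between these lines was thus wider with Nutlin-3a for APAF1 and narrower for AEN, of which the APAF1 change passed the test of the difference given above. SW48 minus HCT116 with Nutlin-3a was -1.21 ± 0.069 for APAF1 and -0.37 ± 0.067 for AEN (adjusted p = 2.96e-07 and 0.00104), but 0.41 ± 0.097 for PIDD1 (adjusted p = 0.00567, with the 2 losses named above), where 46.8% of genes were called. RKO minus HCT116 with Nutlin-3a was 1.00 ± 0.097 for PIDD1 and 0.49 ± 0.067 for AEN (adjusted p = 1.66e-05 and 0.000195). In this contrast 42.4% of genes were called. The 3 means with Nutlin-3a differed for each gene by the F test (adjusted p = 1.08e-07 for APAF1, 2.8e-05 for PIDD1 and 5.59e-06 for AEN), as for 59.5% of all genes.

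IKBIP, whose product is named for its binding to the kinase IKK beta, starts on the strand opposite APAF1, with 501 bases between the 2 starts in the RefSeq promoter table, so the promoters printed above lie back to back. It rose in every line. In SW48, where APAF1 did not change by the test, IKBIP had log2 values of 8.16 and 8.02 with Nutlin-3a, against 7.01 and 7.02 untreated. In HCT116 it had 9.29 and 9.39 with Nutlin-3a, against 7.86 and 7.91 untreated. In RKO it had 9.27 and 9.38 with Nutlin-3a, against 8.35 and 8.17 untreated.

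The IKBIP effect on the log2 scale was 1.08 ± 0.082 in SW48 (2.11-fold, limma adjusted p = 8.41e-05), 1.46 ± 0.082 in HCT116 (adjusted p = 1.14e-05) and 1.07 ± 0.082 in RKO (adjusted p = 0.000139). In SW48 its 95% interval, from 0.89 to 1.26, lay wholly above that of APAF1, from -0.13 to 0.18. A direct test of one gene's effect against the other's was not run. The IKBIP effect in SW48 minus that in HCT116 was -0.38 ± 0.12 (adjusted p = 0.217), and that in RKO minus that in SW48 was -0.01 ± 0.12 (adjusted p = 0.987). Untreated SW48 minus untreated HCT116 was -0.87 ± 0.082 for IKBIP (limma adjusted p = 1.11e-05), where APAF1 stood at -0.05. With Nutlin-3a the same difference was -1.25 ± 0.082 for IKBIP and -1.21 ± 0.069 for APAF1. RKO minus SW48 with Nutlin-3a was 1.24 ± 0.082 for IKBIP and 1.40 ± 0.069 for APAF1. Over the 12 arrays the pair correlated at r = 0.911, and at 0.862 with each line centred on its mean.

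**Figure D3:**
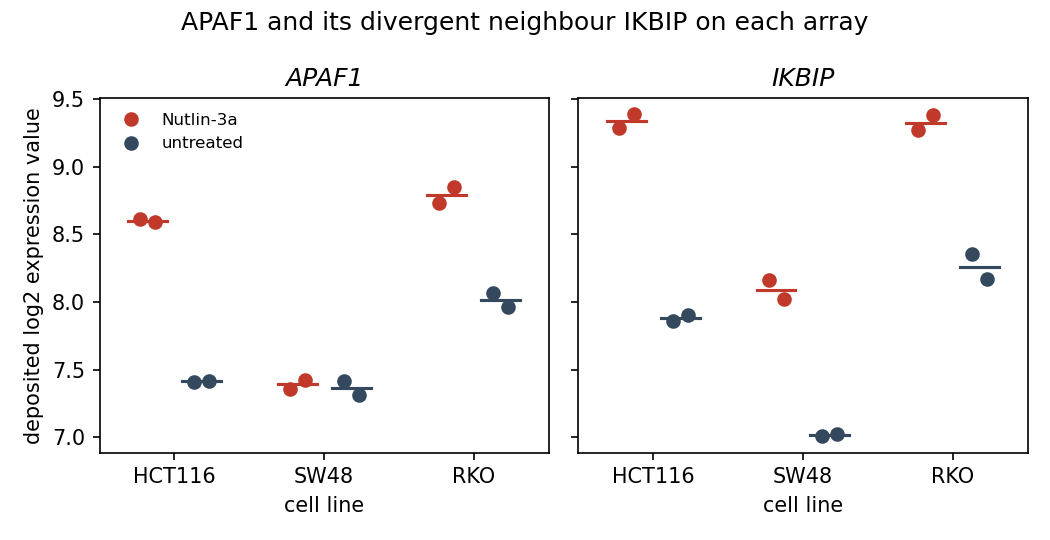
Deposited log2 expression values (vertical axis) of APAF1 and of IKBIP, which starts beside it on the opposite strand, with a point per array, Nutlin-3a (red) left of untreated (dark) in each cell line and a bar at the mean. In SW48 the IKBIP arrays lie at 8.02 and above with Nutlin-3a and at 7.02 and below untreated, while the APAF1 arrays overlap.

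The other measured genes that overlap or stand next to the 3 in the RefSeq gene table did not pass in any line by limma. Over all genes 5.11%, 3.12% and 2.02% passed in HCT116, SW48 and RKO, and 19.6%, 16.2% and 16.9% had an unadjusted p under 0.05. Of 18 neighbouring genes 7 were measured, IKBIP among them, and 1 of the other 6, DET1 in SW48, had an unadjusted p under 0.05. Beside APAF1 this was ANKS1B, which overlaps it in that table, with log2 fold changes of -0.12 ± 0.088 in HCT116, -0.02 ± 0.088 in SW48 and 0.07 ± 0.088 in RKO. Beside PIDD1 it was the neuronal gene CEND1, at -0.16, 0.09 and -0.07 (each ± 0.084) in that order of lines. Beside AEN lies ISG20, which encodes a related, interferon-induced exonuclease, at 0.07, -0.12 and -0.07 (each ± 0.15), and DET1, at -0.02, -0.18 and -0.14 (each ± 0.068). The microRNA genes MIR7-2 and MIR1179 overlap the AEN gene in that table. MIR7-2 stood at -0.27, -0.02 and 0.10 (each ± 0.14) and MIR1179 at -0.02, -0.08 and 0.01 (each ± 0.075), and 0 of their values passed. Group means were low, 3.25 to 3.91 for MIR7-2, 3.09 to 3.28 for MIR1179 and 3.86 to 4.05 for ANKS1B. The array medians ran from 4.97 to 5.05, so a lack of change in these genes says little.

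Of 16 genes for the apoptosome, caspases and their regulators, 5 were measured and 0 passed in any line by limma, while 2 in HCT116, 0 in SW48 and 2 in RKO had an unadjusted p under 0.05. Over all genes 5.11%, 3.12% and 2.02% passed in these lines, and 19.6%, 16.2% and 16.9% had an unadjusted p under 0.05. The 5 genes were XIAP, which inhibits caspases, the related BIRC2, HTRA2, a mitochondrial protease that counters such inhibitors, and UACA and CAAP1, which act on APAF1 or caspase activation. Their median log2 fold change was 0.05 in HCT116, 0.01 in SW48 and 0.04 in RKO, against -0.01 over all genes in each line. XIAP in HCT116 had the largest value, 0.28 ± 0.086 (limma adjusted p = 0.0999). The genes of cytochrome c, caspase-9 and the executioner caspases were not analysed here.

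Of 13 genes for PIDDosome partners and centriolar distal appendages, to which PIDD1 is recruited, 7 were measured. In HCT116 1 fell and 0 rose, in SW48 1 fell and 0 rose, and in RKO 0 fell and 1 rose, where 5.11%, 3.12% and 2.02% of all genes were called. The medians were 0.06, -0.15 and 0.01. The gene that fell was BUB1B, a spindle checkpoint kinase gene, at -0.30 ± 0.060 in HCT116 (limma adjusted p = 0.0189) and -0.28 ± 0.060 in SW48 (0.0351). It lost the HCT116 call without any 1 of the 4 HCT116 arrays (adjusted p up to 0.125), and the SW48 call without any 1 of the 4 SW48 arrays (up to 0.19), any 1 of the HCT116 arrays (up to 0.0597) or either RKO Nutlin-3a array (0.056). With all probe sets tested and with the line fitted alone the BUB1B calls were also lost in HCT116 (0.0544 and 0.0927) and SW48 (0.0981 and 0.192), and in SW48 with quantile normalization (0.0864). PCNA, the replication clamp, rose in RKO by 0.41 ± 0.071 (adjusted p = 0.0222), a call lost without untreated replicate 2 (0.103) or Nutlin-3a replicate 1 (0.107) or 2 (0.0904), and with RKO fitted alone (0.204). PCNA stood at 0.26 ± 0.071 in HCT116 (adjusted p = 0.065) and 0.22 ± 0.071 in SW48 (0.144). These values passed among genes above the median level (0.0176 and 0.0482) and with the robust prior that followed intensity (0.00275 and 0.0143), and in HCT116 with quantile normalization (0.0377). Under the first of these settings 2 genes of the list were called in HCT116 and 3 in SW48. Calls over the whole table then also grew, to 1226 in HCT116 and 858 in SW48, from 721 and 441, though fewer genes were tested. CRADD, the PIDDosome adaptor itself, stood at 0.12 in HCT116, -0.10 in SW48 and -0.05 in RKO, each ± 0.098, and ANKRD26, which anchors PIDD1 at the appendages, at -0.02, -0.15 and 0.14 in the same lines, each ± 0.10. Caspase-2 was not analysed here.

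Of 15 genes for exonucleases and apoptotic nucleases, 6 were measured. In each line 1 fell and 0 rose, where 5.11%, 3.12% and 2.02% of all genes were called. It was EXO1, a nuclease of mismatch repair and replication, at -0.67 ± 0.060 in HCT116 (limma adjusted p = 0.00023), -0.76 ± 0.060 in SW48 (0.000112) and -0.30 ± 0.060 in RKO (0.0381). The RKO call was lost without any 1 of the 12 arrays (adjusted p up to 0.162), with all probe sets tested (0.0963) and with RKO fitted alone (0.214). ENDOG, the mitochondrial endonuclease of apoptosis, stood at -0.15, 0.01 and 0.07, each ± 0.072. The list medians were -0.04, -0.05 and -0.03.

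Of 11 genes for the death receptor route, 3 were measured. In HCT116 1 rose, in SW48 0 passed by limma (1 with an unadjusted p under 0.05) and in RKO 1 rose, where 3.08%, 1.38% and 1.23% of all genes were called higher. CFLAR, which encodes the caspase-8 inhibitor FLIP, rose in HCT116 by 0.65 ± 0.067 (limma adjusted p = 0.000484) and in RKO by 0.49 ± 0.067 (0.00594), and stood at 0.27 ± 0.067 in SW48 (0.0687). The RKO call was lost without untreated replicate 1 (adjusted p = 0.0538) or Nutlin-3a replicate 1 (0.054), and with RKO fitted alone (0.124). The SW48 value passed with quantile normalization (0.0221) and among genes above the median level (0.0169). FADD and BID did not pass in any line. The medians of the 3 genes were -0.08, 0.03 and 0.03.

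**Figure D4:**
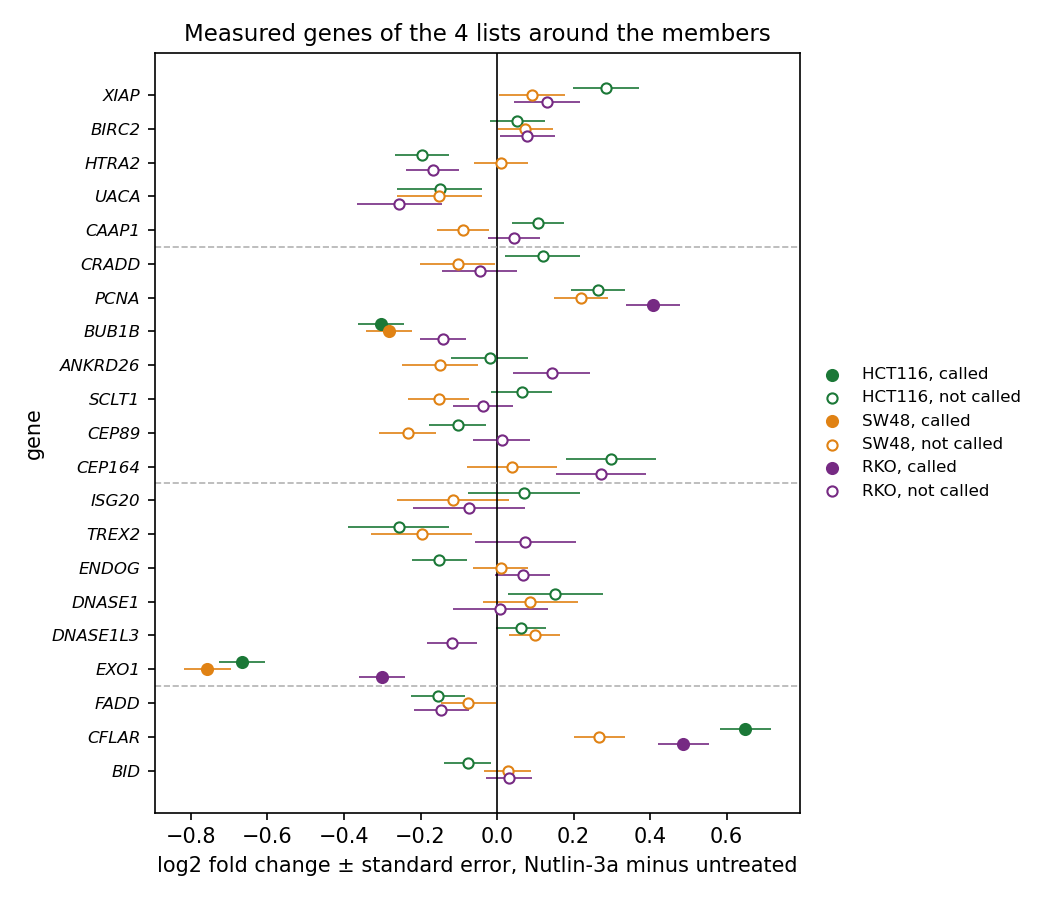
Log2 fold change of Nutlin-3a minus untreated with its standard error (horizontal axis) for the 21 measured genes of the 4 lists (down the page, parted by dashed lines: apoptosome and caspases, PIDDosome and distal appendages, nucleases, death receptors). Filled points passed the test in that line and open points did not, and EXO1 and CFLAR hold the values farthest from 0.

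The genes whose values followed each of the 3 most closely over the 12 arrays were found by Pearson's r among 6592 genes whose group means span at least 0.5. For APAF1 these were BLVRB (r = 0.958), ARVCF (0.958), TRIM22 (0.939), TRIM32 (0.929) and RNF144B (0.924), of which 5 rose in HCT116, 1 in SW48 and 1 in RKO. For PIDD1 they were PRKD2 (0.961), PHPT1 (0.949), ZNF79 (0.937), TIGAR (0.935) and STAT3 (0.924), and all 5 rose in each line. For AEN they were FOSL1 (0.972), SCRIB (0.970), MRPL39 (0.967), ARID3A (0.955) and ERI2 (0.954), of which 1 rose in HCT116, 3 in SW48 and 0 in RKO. Over all genes 3.08%, 1.38% and 1.23% were called higher in these lines. The genes were picked for following a member over the same arrays, so these counts partly restate the choice. The 12 points share cell lines, so r reflects levels in the lines as well as the response to Nutlin-3a, and the genes are a description of these arrays.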

How the data were processed

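The values were the deposited log2 expression values of 37270 probe sets on 12 arrays. The submitters' processing notes name GCOS. How the authors summarized and normalized the probes is not stated in the labels, and base 2 was taken from the range, 2.22 to 13.45. Medians of the 12 arrays ran from 4.97 to 5.05, and 0 columns were identical or left unused. The platform annotation gave 1 symbol to 14530 probe sets (39.0%), several to 0 and none to 22740. All 14530 gene numbers matched the RefSeq gene table of GRCh38.p14, and the highest mean probe set per symbol gave 14118 genes. No filter on dim signal was applied.

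All 12 arrays entered 1 model of 6 group means in limma 3.58.1 (R 4.3.3, with 6 residual and 3.71 prior degrees of freedom). Beforehand only the HCT116 effect was tried on simulated data, which held no differences between untreated lines. The tests of differences between lines were not tried in this way. P-values were adjusted by Benjamini-Hochberg over all genes and called under 0.05. Errors of effects are standard errors with n = 2 arrays per group, which limits the precision. Members and lists were chosen with earlier results of these data known. Of each list, measured genes that were called are named, with others as background; neighbours are the 2 genes on each side and those overlapping, and like genes the 5 of highest r. No scan date or slide was used.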

Additional observations from a re-analysis of the deposited data

Results flagged for a closer look

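The response of APAF1 to Nutlin-3a differed between cell lines by the test of the difference itself. The F test of equal effects gave a limma adjusted p of 0.00629. The effect in SW48 minus that in HCT116 was -1.16 on the log2 scale (adjusted p = 0.0022), with effects of 0.03 in SW48 and 1.19 in HCT116. The effect in RKO minus that in SW48 was 0.74 (adjusted p = 0.0193, and up to 0.0909 without any 1 array), with effects of 0.77 in RKO and 0.03 in SW48. Groups of 2 arrays do not allow a deviating array to be singled out.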

How the results depend on the processing

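The 48 results on APAF1, PIDD1 and AEN were recomputed under other settings. Several settings leave an effect estimate unchanged by design. These are leaving out an array outside the contrast, the replicate block, each line fitted alone, another set of tested genes and another prior. With 1 probe set per member, the mean of probe sets also changed no member estimate. The F tests have a side of the threshold but no direction. Of 921 recomputed values 888 kept direction and side of the threshold, 18 lost a call, 12 gained one and 0 called values reversed. The other 3, none past the threshold, changed sign near 0: APAF1 in SW48 was -0.025 without untreated replicate 2 and -0.0070 without Nutlin-3a replicate 2, and APAF1 in untreated SW48 minus HCT116 was 0.00095 without SW48 untreated replicate 2. The cause of these changes was not tested beyond what a setting itself removes. With each line fitted alone on 4 arrays, the effect of APAF1 in RKO was 0.77 (limma adjusted p = 0.0591), of PIDD1 in HCT116 0.51 (0.0924) and of AEN in RKO 0.47 (0.113), and 208, 115 and 31 genes were called in HCT116, SW48 and RKO, against 721, 441 and 285. With only genes above the median level, the PIDD1 effect in RKO minus HCT116 was 0.64 (0.0473), the AEN effect in RKO minus SW48 -0.46 (0.0278), APAF1 in RKO minus HCT116 with Nutlin-3a 0.19 (0.0204), and the F tests of effects gave 0.0468 for PIDD1 and 0.0335 for AEN. Genes called were then 1226, 858 and 742 in the 3 lines, 151, 99 and 119 for the differences SW48 minus HCT116, RKO minus HCT116 and RKO minus SW48, and 194 by F, against 30, 35, 51 and 71. With a robust prior following intensity the same 5 member results passed (0.64 at 0.0181, -0.46 at 0.0215, 0.19 at 0.0488, F 0.0184 and 0.0275), and 1228, 870, 760, 145, 114, 157 and 288 genes in that order. Centring arrays gave APAF1 in RKO minus HCT116 with Nutlin-3a 0.22 (0.0287), and quantile normalization gave PIDD1 in untreated RKO minus HCT116 0.26 (0.0557). With all probe sets tested, 32 were called for RKO minus SW48, 13836 by F between untreated lines and 14738 with Nutlin-3a.

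With the replicate block 0 member calls changed, while 188 genes were called in RKO, 17 for SW48 minus HCT116, 4 for RKO minus HCT116, 20 for RKO minus SW48 and 31 by F. Same-numbered arrays did not deviate together (r from -0.13 to 0.05 over 15 pairs of groups). A low r cannot show that the samples were not paired, since pairing may leave little shared deviation. BUB1B in SW48 (0.0524) and EXO1 in RKO (0.0568) lost their calls with the block.

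Leaving out each array in turn gave an APAF1 effect in RKO minus SW48 from 0.69 to 0.80, APAF1 in RKO minus HCT116 with Nutlin-3a from 0.13 to 0.25, PIDD1 in HCT116 from 0.40 to 0.61, PIDD1 in untreated RKO minus HCT116 from 0.28 to 0.45, PIDD1 in SW48 minus HCT116 with Nutlin-3a from 0.29 to 0.53 and AEN in RKO from 0.45 to 0.50. Genes called ranged from 260 to 692 in HCT116, 188 to 394 in SW48, 97 to 226 in RKO, 8 to 27, 0 to 10 and 7 to 28 for the differences in the order above, and 15 to 39 by F. A group left with 1 array was assumed to vary like the others. With 2 arrays per group, single calls near the threshold rest on single arrays, and signal over background could not be judged from these values.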
